A study of Homo sapiens with 12 samples.

Results

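The 50 genes described here build and run the machinery that copies DNA: they recognise replication origins, load and activate the MCM helicase, make and join new strands, and restore chromatin behind the fork. They were taken as a list of gene symbols, and a probe set counted for a gene where the platform annotation gave that 1 symbol. All 50 had such a probe set, 89 probe sets in all, and all 50 passed the filter on low values, which left 10729 of 19775 genes for testing. GINS4 passed it only through the control arrays of 24 h and therefore had to differ between groups.

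The cells were HK-2, an immortalised human kidney line whose label gives proximal tubular epithelium as its origin. They received a high dose of Ota, which the labels neither spell out nor quantify, or only the vehicle. RNA was taken at 24 h or 72 h, so the 4 groups were Ota 24 h, control 24 h, Ota 72 h and control 72 h, with 3 Affymetrix arrays each. All groups were the same line, plated 24 h before treatment in defined medium with growth factor and hydrocortisone and treated close to confluence; a line of this kind is a single culture source and not several donors. The labels call the arrays biological replicates without saying whether cultures were separate, so p-values reflect how these 3 arrays a group vary, which may be technical, and the number of arrays limits the precision.

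In human cells the origin recognition complex, CDC6 and CDT1 place MCM2-7 rings on DNA in G1, and the kinases of S phase, with CDC45 and GINS, turn each ring into an active helicase. Polymerase alpha with primase then starts strands, polymerases delta and epsilon extend them on the PCNA clamp, and FEN1 and LIG1 finish the lagging strand. Many of these genes are classical targets of the E2F factors and are transcribed mainly in dividing cells, while kidney tubule cells in the body seldom divide.

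Values are the deposited log2 GCRMA values, on which a difference of 1 is a factor of 2. The median of the tested genes was lower on the Ota arrays than on the control arrays, 7.40 ± 0.16 against 7.97 ± 0.05 (SD, n = 3 each) at 24 h and 7.68 ± 0.05 against 7.96 ± 0.02 (SD, n = 3 each) at 72 h. Poly-A spike-in probe sets moved the other way, by 1.85 and 0.89, and 18S ribosomal RNA probe sets by 1.58 and 1.34. The 3' to 5' difference of ACTB, a measure of RNA integrity, was 1.97 ± 0.33 in Ota and 1.39 ± 0.15 in control (SD, n = 3 each) at 72 h, while that of GAPDH was −0.02 ± 0.07 and −0.06 ± 0.01 (SD, n = 3 each). The part of these array-wide differences in the results below was not tested. Arrays of 1 group correlated at 0.954 to 0.994. Of the markers of kidney tubule, 3 of 12 passed the filter (PAX8, CDH6 and CDH2), and AQP1, LRP2, CUBN and ANPEP did not, with group means of 2.13 to 3.10. All 6 epithelial markers passed, no endothelial or leukocyte marker did, and of the fibroblast markers 3 of 6 passed. These 3 were COL1A1, DCN and LUM, and all 3 had lower control means at 72 h than at 24 h, as the replication genes did, 7.08 after 8.11 for COL1A1, 9.55 after 11.34 for DCN and 7.26 after 9.04 for LUM. In Ota cells COL1A1 was at 6.18 and 7.63, DCN at 11.73 and 10.09, and LUM at 9.73 and 8.81, while COL1A2, COL3A1 and PDGFRB were at or under 3.03 in each group. The part of these markers in the results was not tested.

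At 24 h the replication genes were mostly lower in Ota cells, at 72 h about as many were higher as had been lower, and in the control cells themselves most of them fell between 24 h and 72 h. At 24 h, 28 of 50 were lower and 3 higher in Ota than in control, beside 40.5% lower and 20.8% higher of all tested genes (limma, adjusted p under 0.05). Their median log2 fold change was −0.94 and that of all tested genes −0.24. The 24 h counts depended on how the arrays were scaled. Centring each array on its median gave 16 higher and 25 lower, beside 43.4% higher and 26.7% lower of all tested genes. Scaling to the spike-ins gave 0 higher and 50 lower, beside 1.42% higher and 93.5% lower of all tested genes. At 72 h, 24 were higher and 9 lower, beside 24.8% higher and 35.2% lower of all tested genes, with a median of 0.55 against −0.11. With spike-in scaling the 72 h split turned to 7 higher and 20 lower, beside 5.17% higher and 62.6% lower of all tested genes.

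Median centring and spike-in scaling move all genes of an array by the same amount, and quantile normalization does not. Quantile normalization, median centring and spike-in scaling shifted the median of all tested genes by 0.20, 0.56 and −1.85 at 24 h, and by 0.07, 0.28 and −0.89 at 72 h. Measured from the median of all tested genes, the median replication gene was lower by 0.70 at 24 h and higher by 0.67 at 72 h. These distances are the same by construction under centring and spike-in scaling, and were 0.75 lower and 0.66 higher under quantile normalization.

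The test of the difference between the Ota effects at both times, which shares arrays with both comparisons, gave 37 genes with a higher effect at 72 h and 1 with a lower effect. Of all tested genes 29.6% had a higher and 19.9% a lower effect at 72 h, 49.5% in all. The 37 became 31 with median centring, beside 23.5% of all tested genes, and 42 with spike-in scaling, beside 55.1%. Quantile normalization gave 34, beside 26.1% of all tested genes. In control cells 38 of 50 fell from 24 h to 72 h and 0 rose by this test, beside 13.3% and 12.2% of all tested genes. At an unadjusted p under 0.05 the control comparison counted 41 replication genes, beside 3945 of the 10729 tested genes. The median change in control cells was −1.25, against 0.00 for all tested genes. Under the scalings 31 to 40 genes fell. The 31 came with spike-in scaling, beside 6.56% of all tested genes, and the 40 with quantile normalization, beside 14.0%.

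**Figure D1:**
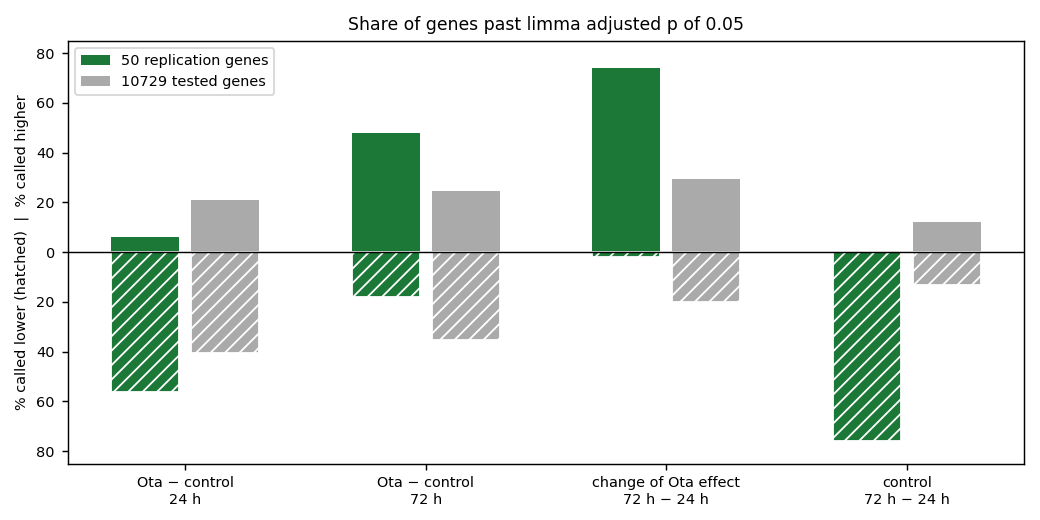
Share of the 50 replication genes (green) and of the 10729 tested genes (grey) called higher (plain bars, upwards) and lower (hatched bars, downwards), in percent, for the 4 comparisons at a limma adjusted p under 0.05. The replication genes were called lower in 56% of cases at 24 h and higher in 48% at 72 h with the values as deposited. With spike-in scaling 50 were lower at 24 h, beside 93.5% of all tested genes. At 72 h that scaling gave 20 lower and 7 higher, beside 62.6% and 5.17% of all tested genes.

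Read by array, the median of the 50 values was 8.29 ± 0.05 in Ota and 9.47 ± 0.10 in control (SD, n = 3 each) at 24 h, with no overlap between the groups. It was 8.85 ± 0.17 in Ota and 8.63 ± 0.13 in control (SD, n = 3 each) at 72 h, where the groups overlapped. An exact two-sided permutation test gave p = 0.10 at 24 h and p = 0.20 at 72 h, and 3 against 3 arrays cannot go below 0.10. By this median control cells stood highest at 24 h and Ota cells lowest at 24 h. The group with the highest mean was control 24 h for 30 of the 50 genes, against 22.9% of all tested genes. The lowest mean lay in control 72 h for 22 genes, against 19.6% of all tested genes, and in Ota 24 h for 14, against 39% of all tested genes. In such bulk samples fewer dividing cells and less RNA of these genes per cell cannot be told apart.

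**Figure D2:**
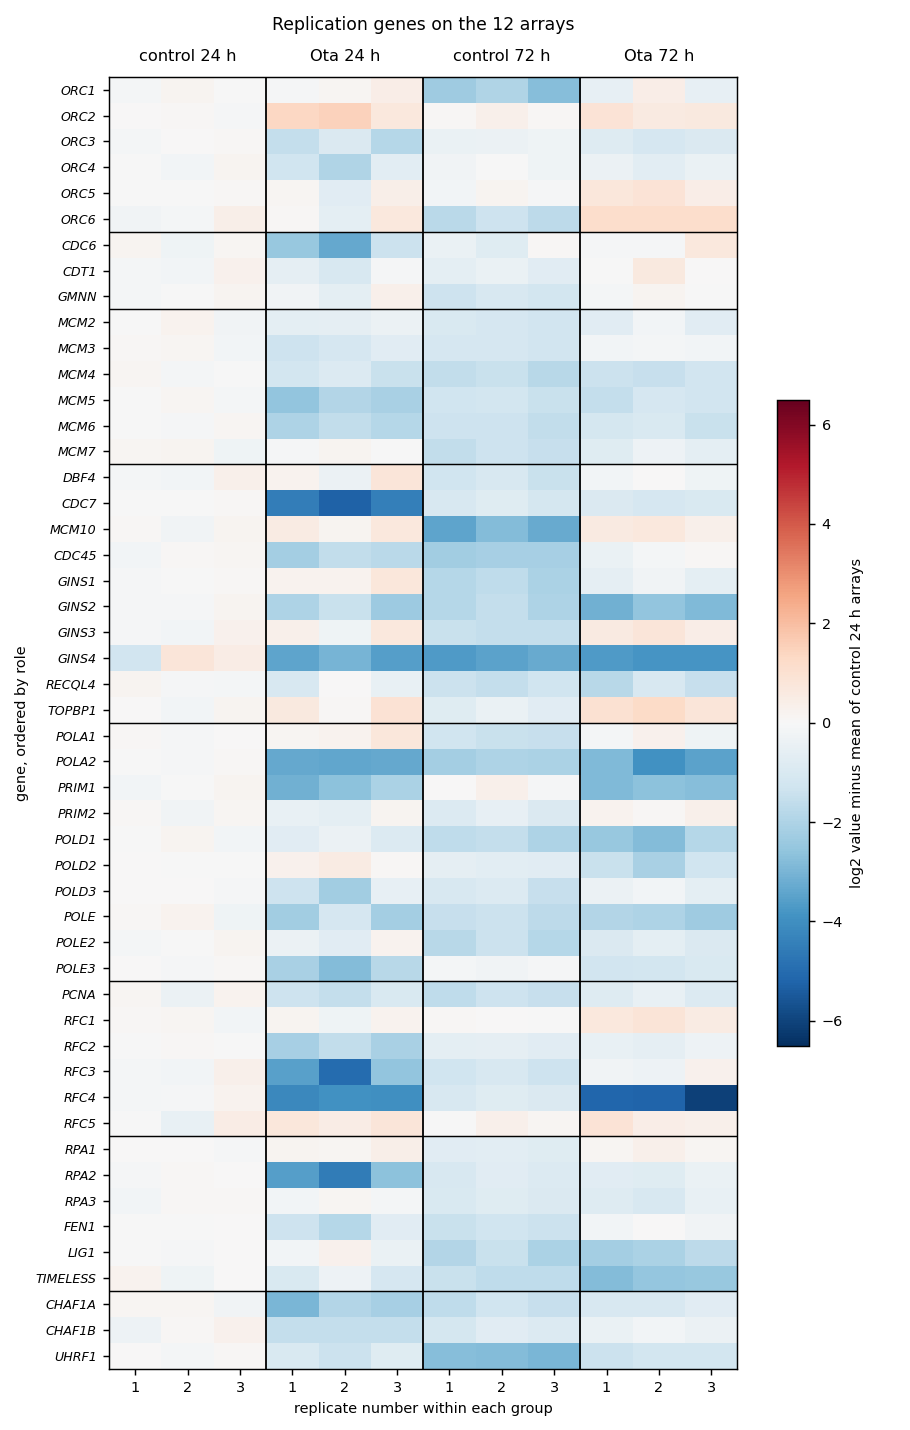
Log2 value of each of the 50 genes on each of the 12 arrays minus its mean over the 3 control arrays of 24 h (colour; blue lower, red higher), genes ordered by role. CDC7, RFC3 and RPA2 are, in the deposited values, dark on the 3 Ota arrays of 24 h and pale on the 3 Ota arrays of 72 h, whereas RFC4, PRIM1 and POLA2 are dark in Ota at both times.

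The promoters of genes that took different courses are printed so that their letters can be set beside the values. Each stretch holds the 100 bases just before the annotated start, 5′ to 3′ on the gene's strand, from RefSeq on GRCh38.p14, and capitals mark the letters TTTCCCGC or TTTGGCGC, or their reverse complements, which are core letters of E2F-type motifs. RFC3 (chr13:33818049-33818148, plus strand), CDC7 (chr1:91501012-91501111, plus strand), PCNA (chr20:5126623-5126722, minus strand), GINS2 (chr16:85688955-85689054, minus strand), UHRF1 (chr19:4909401-4909500, plus strand) and GMNN (chr6:24775313-24775412, plus strand) hold the letters, and RFC4 (chr3:186806483-186806582, minus strand) does not.
RFC3: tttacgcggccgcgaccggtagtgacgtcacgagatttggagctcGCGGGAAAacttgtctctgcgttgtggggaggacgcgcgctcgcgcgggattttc
CDC7: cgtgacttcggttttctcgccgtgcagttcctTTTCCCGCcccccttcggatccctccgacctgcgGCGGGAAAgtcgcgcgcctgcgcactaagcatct
PCNA: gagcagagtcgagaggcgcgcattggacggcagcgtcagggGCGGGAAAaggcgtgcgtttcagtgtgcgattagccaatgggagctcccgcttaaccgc
GINS2: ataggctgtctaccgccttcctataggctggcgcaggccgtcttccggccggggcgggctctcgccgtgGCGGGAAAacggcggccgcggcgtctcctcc
UHRF1: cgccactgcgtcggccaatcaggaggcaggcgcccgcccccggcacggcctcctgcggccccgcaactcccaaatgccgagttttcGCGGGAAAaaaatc
GMNN: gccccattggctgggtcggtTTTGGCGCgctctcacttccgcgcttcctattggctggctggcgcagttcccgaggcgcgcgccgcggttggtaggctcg
RFC4: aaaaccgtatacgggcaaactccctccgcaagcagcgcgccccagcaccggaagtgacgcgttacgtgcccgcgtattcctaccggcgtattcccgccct

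Windows from 250 bases before to 50 after the start were on hand for 43 of the 50 genes. RECQL4, POLD3, MCM4, RPA3, GINS4, MCM5 and RPA2 had none. On either strand, 18 of the 43 genes held TTTCCCGC or TTTGGCGC in a window, that is 41.9%, against 4.81% of 8890 tested genes with a window. Counted by window, it was 31.6% of 57 replication gene windows and 2.27% of all 35116 windows. The letters CCAAT, searched on both strands, stood in 24 of the 43, 55.8%, against 44.1% of the tested genes. Of the 18 with the letters, 10 were lower at 24 h, 10 were higher and 2 lower at 72 h, 17 had a higher Ota effect at 72 h and 14 fell with time in control cells. Of the 25 without them, 13 were lower at 24 h, 14 were higher and 7 lower at 72 h, 15 had a higher effect at 72 h and 18 fell with time in control cells. Both sets of counts are to be read against the shares of all tested genes given above. Genes with the letters had median log2 fold changes of −1.06 at 24 h, 0.83 at 72 h and −1.46 in control cells, and their median change of effect was 1.38. For genes without them the medians were −0.52, 0.55, −0.91 and 1.08 in the same order. The difference between the sets was not tested. The 3 genes higher at 24 h, ORC2, TOPBP1 and RFC5, were among the 25 of 43 without the letters. None of these 3 calls held in every fit, and ORC2 and RFC5 were lower at 24 h on other probe sets. A match is a description of the letters and not a site, and no match says only that these letters are not in the window.

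The origin recognition complex, 6 subunits that mark origins and recruit the loading factors, split between its members. At 24 h ORC3 and ORC4 were lower and ORC2 was higher, and at 72 h ORC1, ORC2, ORC5 and ORC6 were higher and ORC3 lower. ORC6, the smallest subunit, read 8.73, 8.83 and 9.38 on the control arrays and 9.07, 8.33 and 9.68 on the Ota arrays at 24 h. The 72 h arrays read 7.25, 7.62 and 7.26 in control and 10.12, 10.13 and 10.11 in Ota. The groups overlapped at 24 h and lay far apart at 72 h, where Ota cells stood above every control array of either time. For ORC6 the log2 fold change was 0.05 ± 0.29 (SE) at 24 h and 2.75 ± 0.29 (SE, limma adjusted p = 8.11e-06) at 72 h. ORC1, the ATPase that recruits CDC6, was likewise higher at 72 h by 2.13 ± 0.28 (SE), and had fallen by 2.34 in control cells. ORC3, a core subunit, read 9.57, 9.71 and 9.78 in control and 8.14, 8.77 and 7.86 in Ota at 24 h. Its 72 h values were 9.28, 9.33 and 9.40 in control and 8.87, 8.60 and 8.77 in Ota. Ota arrays were below all control arrays of their time at both times. For ORC3 the log2 fold change was −1.44 ± 0.20 (SE, limma adjusted p = 7.56e-05) at 24 h and −0.59 ± 0.20 (SE, limma adjusted p = 0.0239) at 72 h.

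Several of the small calls in this complex rested on few arrays. The 72 h calls on ORC2, ORC3 and ORC5 were lost without 1 array in turn, with limma adjusted p from 0.0556 to 0.104. Those arrays were Ota replicates 1 and 2 and control replicates 1 and 3 for ORC5 (log2 fold change 0.61 to 0.68), Ota replicate 2 and control replicates 2 and 3 for ORC3 (−0.60 to −0.52), and Ota replicate 1 and control replicates 1 and 3 for ORC2 (0.47 to 0.51). The calls on the change of effect of ORC3 and ORC4, 0.84 and 1.01, were each lost without any of 7 arrays, with limma adjusted p of 0.0515 to 0.0664 for ORC3 and 0.0619 to 0.0832 for ORC4. Both were lost without Ota replicate 1 of 24 h, Ota replicates 1 and 3 of 72 h, control replicate 3 of 24 h and control replicate 1 of 72 h. ORC3 was lost also without control replicate 2 of either time, and ORC4 without control replicate 1 of 24 h or 3 of 72 h. ORC2 also turned with the probe set, as described with the probe sets below. Under spike-in scaling the 24 h value of ORC2 was −0.67, its 72 h value −0.34 and that of ORC5 −0.19.

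Of the loading factors, CDC6, the ATPase that brings MCM2-7 to the origin complex, was lower at 24 h and not called at 72 h. It read 8.86, 8.38 and 8.80 in control and 6.20, 5.37 and 7.27 in Ota at 24 h. The 72 h values were 8.23, 7.89 and 8.75 in control and 8.58, 8.58 and 9.38 in Ota. The groups were apart at 24 h and overlapped at 72 h. For CDC6 the log2 fold change was −2.40 ± 0.41 (SE, limma adjusted p = 0.000343) at 24 h and 0.55 ± 0.41 (SE, limma adjusted p = 0.27) at 72 h, and the effects differed by 2.95 ± 0.58 (SE, limma adjusted p = 0.0016). GMNN encodes geminin, which binds CDT1 and blocks a renewed loading. It read 10.55, 10.61 and 10.82 in control and 10.43, 10.02 and 10.97 in Ota at 24 h. At 72 h the values were 9.29, 9.60 and 9.45 in control and 10.53, 10.85 and 10.61 in Ota. The 72 h Ota arrays lay at the 24 h control level, while the 72 h control arrays had dropped away from it. For GMNN the log2 fold change at 72 h was 1.22 ± 0.21 (SE, limma adjusted p = 0.000422), and that call was not kept under spike-in scaling.

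CDT1, the partner of CDC6 in loading, was read on the probe set with the higher mean as 9.19, 9.12 and 9.61 in control and 8.74, 8.27 and 9.22 in Ota at 24 h. Its 72 h values were 8.68, 8.90 and 8.59 in control and 9.27, 9.96 and 9.33 in Ota. The groups overlapped at 24 h and were apart at 72 h, with Ota higher. For CDT1 the log2 fold change at 72 h was 0.80 ± 0.26 (SE, limma adjusted p = 0.0179). It was −0.15 as the mean over both CDT1 probe sets and −0.09 with spike-in scaling, and the call was lost when replicate 2 of Ota or replicate 1 or 3 of control was left out (limma adjusted p 0.0503 to 0.0789).

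The MCM2-7 ring, the motor of the replicative helicase, moved alike over time. All 6 subunits fell in control cells from 24 h to 72 h, beside 13.3% of all tested genes, with log2 changes of −1.61 to −1.11. All 6 also had a higher Ota effect at 72 h than at 24 h, by 0.85 to 2.23, beside 29.6% of all tested genes. At 24 h, 5 of 6 were lower, beside 40.5% of all tested genes, with MCM7 at 0.03 ± 0.17 (SE). At 72 h MCM2, MCM3 and MCM7 were higher, and MCM4, MCM5 and MCM6 had log2 fold changes of 0.02 to 0.25. MCM5 read 10.41, 10.58 and 10.32 in control and 7.85, 8.51 and 8.32 in Ota at 24 h. At 72 h it read 9.16, 9.22 and 9.01 in control and 8.90, 9.33 and 9.21 in Ota. The groups were well apart at 24 h and intermingled at 72 h. The log2 fold change of MCM5 at 24 h was −2.21 ± 0.19 (SE, limma adjusted p = 1.3e-06). MCM3 read 11.19, 11.26 and 10.95 in control and 9.80, 10.02 and 10.38 in Ota at 24 h. The 72 h readings were 10.02, 10.02 and 9.90 in control and 10.97, 10.99 and 10.95 in Ota. Here Ota was below control at 24 h and above control at 72 h, without overlap. The log2 fold change of MCM3 was −1.07 ± 0.16 (SE, limma adjusted p = 0.00012) at 24 h and 0.99 ± 0.16 (SE, limma adjusted p = 0.000217) at 72 h.

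The smallest calls of the ring were those on MCM2, −0.52 ± 0.18 (SE) at 24 h and 0.55 ± 0.18 (SE) at 72 h. Leaving out replicate 1 or 2 of Ota, or replicate 1 or 2 of control, ended the 24 h call (limma adjusted p 0.0518 to 0.0992), and median centring turned it to 0.04. The 72 h call needed replicate 2 of Ota and replicate 3 of control (limma adjusted p without them 0.0763 and 0.0809). With spike-in scaling MCM2 and MCM7 were at −0.33 and −0.01 at 72 h, and the call on MCM3 was lost.

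The helicase activation genes ranged from a fall of CDC7 at 24 h to a rise of MCM10 at 72 h. All 10 fell in control cells with time, beside 13.3% of all tested genes. A higher Ota effect at 72 h was called for 8 of 10, beside 29.6% of all tested genes. Both counts include GINS4, which had to differ between groups. CDC7 is the kinase that phosphorylates the MCM ring, with DBF4 as its activating subunit. CDC7 read 8.39, 8.38 and 8.49 in control and 3.93, 3.16 and 3.98 in Ota at 24 h. The 72 h arrays read 7.38, 7.64 and 7.27 in control and 7.46, 7.34 and 7.43 in Ota. All Ota arrays of 24 h lay under the filter value of 4, so the control mean of 8.42 was at least 4.42 higher, and at 72 h the groups were mixed. For CDC7 the log2 fold change was −4.73 (limma adjusted p = 1.31e-08) at 24 h, a value without a known precision beside the bound of 4.42. At 72 h the CDC7 value was −0.02 ± 0.20 (SE, limma adjusted p = 0.932), and with spike-in scaling it was −0.91 and past the threshold. DBF4 was at 0.21 ± 0.26 (SE) at 24 h and higher at 72 h by 1.13 ± 0.26 (SE).

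CDC45 travels with the MCM ring and the GINS complex as the active helicase. It read 7.98, 8.21 and 8.27 in control and 5.96, 6.53 and 6.39 in Ota at 24 h. At 72 h the values were 5.92, 6.01 and 5.98 in control and 7.70, 8.01 and 8.24 in Ota. The order of the groups turned over between the times, without overlap at either, and the Ota arrays of 72 h were near the control arrays of 24 h. For CDC45 the log2 fold change was −1.86 ± 0.18 (SE, limma adjusted p = 4.19e-06) at 24 h and 2.01 ± 0.18 (SE, limma adjusted p = 2.45e-06) at 72 h. MCM10, a scaffold needed to switch the helicase on, took another course. It read 7.45, 7.12 and 7.54 in control and 7.89, 7.57 and 8.04 in Ota at 24 h. At 72 h it read 3.93, 4.53 and 4.07 in control and 7.93, 8.08 and 7.71 in Ota. The control arrays of 72 h alone stood apart, close to the filter value, with the other 3 groups near each other. For MCM10 the log2 fold change was 0.46 ± 0.20 (SE, limma adjusted p = 0.0619) at 24 h and 3.73 ± 0.20 (SE, limma adjusted p = 6.84e-08) at 72 h. Its value over all settings was 1.81 to 4.01 at 72 h, the lowest without the probe sets whose names end in _x_at, _s_at or _a_at.

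The 4 GINS subunits did not move together. GINS1 and GINS3 were higher at 72 h by 1.38 ± 0.18 (SE) and 2.11 ± 0.23 (SE), while GINS2 was lower at both times. GINS2 read 10.27, 10.28 and 10.51 in control and 8.33, 8.92 and 7.99 in Ota at 24 h. At 72 h the arrays gave 8.48, 8.80 and 8.37 in control and 7.25, 7.81 and 7.49 in Ota. Ota was below control at both times, and each treatment was lower at 72 h than at 24 h. For GINS2 the log2 fold change was −1.94 ± 0.23 (SE, limma adjusted p = 2.12e-05) at 24 h and −1.03 ± 0.23 (SE, limma adjusted p = 0.00227) at 72 h. The change between the effects, 0.91 ± 0.33 (SE, limma adjusted p = 0.0386), was lost without any of 9 arrays (adjusted p 0.0554 to 0.0894). The exceptions were Ota replicate 2 of 24 h, Ota replicate 1 of 72 h and control replicate 2 of 72 h. GINS4 read 5.24, 7.25 and 6.94 in control at 24 h and 3.04, 3.48 and 2.92 in Ota. The 72 h arrays read 2.80, 3.02 and 3.20 in control and 2.81, 2.65 and 2.65 in Ota. Only the control arrays of 24 h were above the filter value, so its 24 h control mean of 6.48 stood at least 2.48 above the Ota level on the log2 scale, counted from the filter value. Without GINS4, 27 of 49 genes were lower at 24 h, 36 had a higher effect at 72 h and 37 fell in control cells.

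TOPBP1, which bridges CDC45 and the MCM ring and also activates the ATR checkpoint kinase, was higher at both times. It read 10.38, 10.19 and 10.55 in control and 11.02, 10.46 and 11.33 in Ota at 24 h. It read 9.57, 9.95 and 9.65 in control and 11.38, 11.61 and 11.16 in Ota at 72 h. The groups overlapped at 24 h and were apart at 72 h. For TOPBP1 the log2 fold change was 0.56 ± 0.22 (SE, limma adjusted p = 0.0441) at 24 h and 1.66 ± 0.22 (SE, limma adjusted p = 4.79e-05) at 72 h. The 24 h call was lost with the replicate number as a block (limma adjusted p = 0.0623), with only the 6 arrays of 24 h and without the filter, and its adjusted p over all settings ran from 2.5e-05 to 0.161. It was lost also without any 1 of Ota replicates 1 and 3 and control replicates 1 and 2 of 24 h, Ota replicate 1 of 72 h and control replicates 1 and 3 of 72 h. Spike-in scaling turned the 24 h value to −1.29. RECQL4, a helicase required for initiation, was called in neither Ota comparison.

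**Figure D3:**
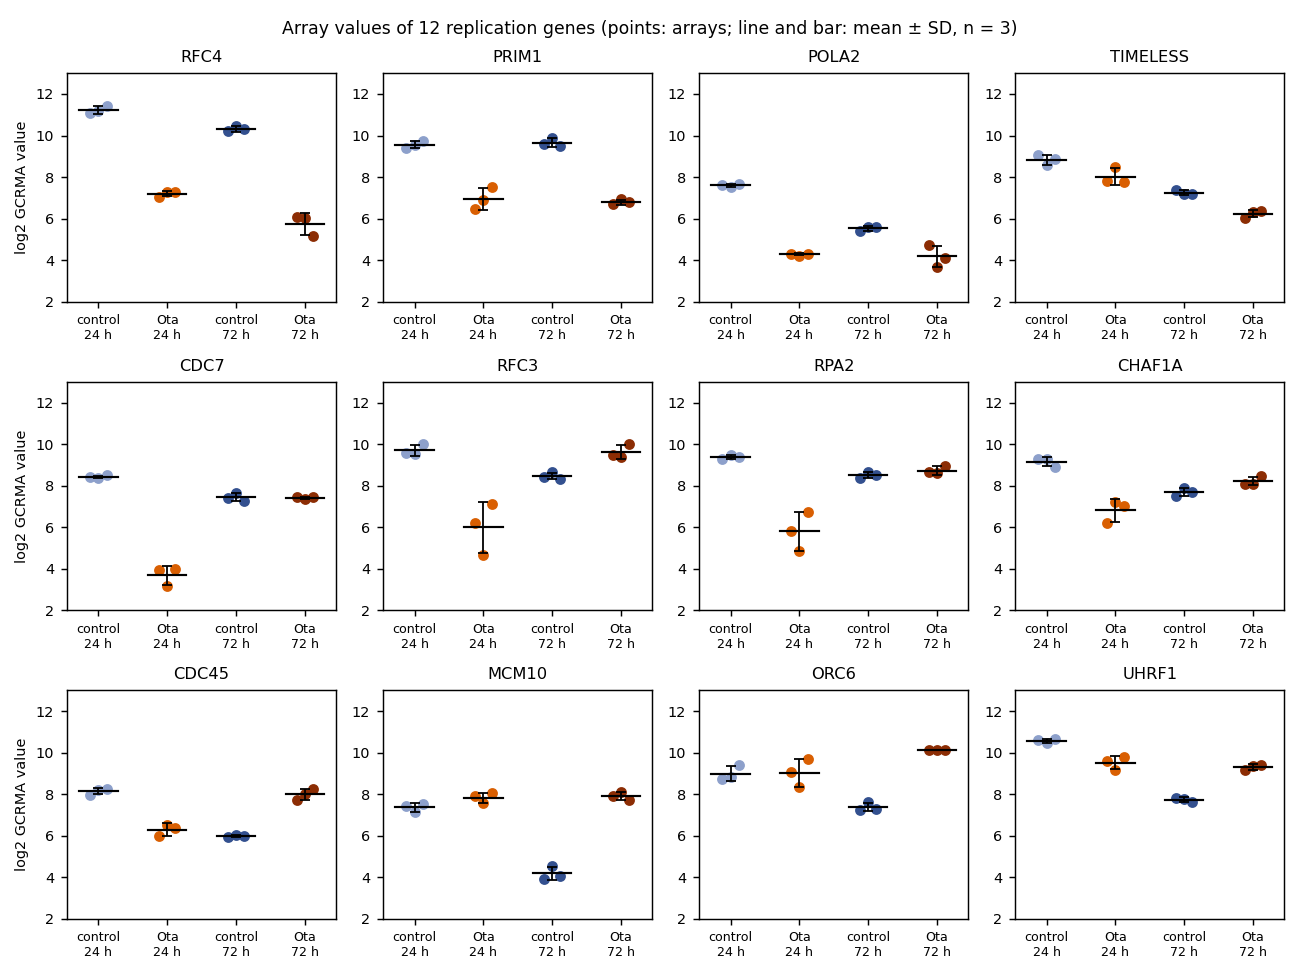
Log2 GCRMA values (vertical axis) of 12 genes in the 4 groups; points are the 3 arrays of a group and lines with bars are the mean ± SD. RFC4, PRIM1, POLA2 and TIMELESS are lower in Ota at both times, and CDC45 and UHRF1 are lower at 24 h and higher at 72 h. CDC7, RFC3, RPA2 and CHAF1A are lower at 24 h and not called at 72 h. CDC7 is called at −0.91 at 72 h with spike-in scaling, and other probe sets of RFC3 and CHAF1A than those plotted are called higher at 72 h.

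Of the polymerases and primase 3 of 10 were higher and 5 lower at 72 h, beside 24.8% and 35.2% of all tested genes. At 24 h, 6 of 10 were lower and 0 higher by limma, beside 40.5% and 20.8% of all tested genes. At an unadjusted p under 0.05 in either direction there were also 6, beside 6965 of the 10729 tested genes, so this count was near the background. Within the primase complex the paired subunits parted. PRIM1, the catalytic primase, read 9.39, 9.55 and 9.76 in control and 6.45, 6.90 and 7.51 in Ota at 24 h. The 72 h readings were 9.57, 9.90 and 9.49 in control and 6.68, 6.92 and 6.79 in Ota. The groups lay far apart and kept the same levels at both times. For PRIM1 the log2 fold change was −2.61 ± 0.24 (SE, limma adjusted p = 2.3e-06) at 24 h and −2.86 ± 0.24 (SE, limma adjusted p = 1.24e-06) at 72 h. In control cells PRIM1 changed by 0.09 ± 0.24 (SE, limma adjusted p = 0.838) with time, while 38 other genes fell. PRIM2, its regulatory partner, was at −0.30 ± 0.22 (SE) at 24 h and higher at 72 h by 1.02 ± 0.22 (SE).

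POLA2, the regulatory subunit that ties primase to polymerase alpha, read 7.61, 7.54 and 7.68 in control and 4.31, 4.22 and 4.31 in Ota at 24 h. By 72 h the arrays gave 5.40, 5.61 and 5.57 in control and 4.73, 3.68 and 4.11 in Ota. Ota arrays stayed near the filter value at both times, below control. For POLA2 the log2 fold change was −3.33 ± 0.22 (SE, limma adjusted p = 1.73e-07) at 24 h and −1.36 ± 0.22 (SE, limma adjusted p = 0.000189) at 72 h. POLA1, the catalytic subunit of the same enzyme, read 9.09, 8.94 and 9.02 in control and 9.12, 9.22 and 9.73 in Ota at 24 h. It read 7.72, 7.55 and 7.51 in control and 8.88, 9.31 and 8.72 in Ota at 72 h. Only the control arrays of 72 h were low. For POLA1 the log2 fold change was 0.34 ± 0.19 (SE, limma adjusted p = 0.148) at 24 h and 1.38 ± 0.19 (SE, limma adjusted p = 6.9e-05) at 72 h, and the 72 h call was lost under spike-in scaling.

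Of polymerase delta, the lagging-strand enzyme, the catalytic POLD1 was lower by 0.66 ± 0.24 (SE) at 24 h and by 0.65 ± 0.24 (SE) at 72 h. With the replicate number as a block their limma adjusted p was 0.0511 and 0.0555, and over all settings it reached 0.76 and 0.257. At 24 h the call needed replicates 1 and 3 of Ota and 1 and 2 of control. At 72 h it needed replicates 1 and 2 of Ota, replicates 1 and 2 of control and replicate 1 of the 24 h control. POLD2, an accessory subunit, was the 1 gene whose Ota effect was lower at 72 h than at 24 h, by −1.24 ± 0.29 (SE, limma adjusted p = 0.00413). It was at 0.30 ± 0.20 (SE) at 24 h and lower by 0.94 ± 0.20 (SE) at 72 h. That change of effect did not pass under spike-in scaling. POLD3 was lower at 24 h by 1.38 ± 0.34 (SE). Of polymerase epsilon, the leading-strand enzyme, the catalytic POLE was lower at 24 h by 1.85 ± 0.28 (SE). POLE3, a histone-fold subunit, was lower by 2.25 ± 0.21 (SE) at 24 h and by 1.00 ± 0.21 (SE) at 72 h, and in control cells it changed by −0.14 ± 0.21 (SE, limma adjusted p = 0.701) with time. POLE2 was higher at 72 h by 0.86 ± 0.23 (SE), a value of −0.03 with spike-in scaling.

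The clamp loader, in which RFC1 to RFC5 open the PCNA ring onto primed DNA, held large falls and, on the brightest probe sets, no common course. RFC4 read 11.08, 11.17 and 11.43 in control and 7.06, 7.30 and 7.26 in Ota at 24 h. The 72 h readings were 10.20, 10.46 and 10.30 in control and 6.08, 6.03 and 5.14 in Ota. The Ota arrays lay far below control at both times. For RFC4 the log2 fold change was −4.02 ± 0.23 (SE, limma adjusted p = 6.67e-08) at 24 h and −4.57 ± 0.23 (SE, limma adjusted p = 3.8e-08) at 72 h, and the effects did not differ past the threshold (−0.55 ± 0.32 (SE), adjusted p = 0.176). RFC3 read 9.56, 9.51 and 10.02 in control and 6.19, 4.67 and 7.11 in Ota at 24 h. At 72 h the arrays gave 8.41, 8.64 and 8.33 in control and 9.45, 9.36 and 9.98 in Ota. Ota arrays were below control and spread widely at 24 h, and above control at 72 h. For RFC3 the log2 fold change was −3.70 ± 0.46 (SE, limma adjusted p = 2.86e-05) at 24 h and 1.14 ± 0.46 (SE, limma adjusted p = 0.0503) at 72 h, and with the replicate number as a block the latter had an adjusted p of 0.0327 (0.00013 to 0.674 over all settings). The RFC3 effect changed by 4.84 ± 0.65 (SE, limma adjusted p = 0.000142). The other RFC3 probe set past the filter was also lower at 24 h, and it was called higher at 72 h, by 1.35 ± 0.48 (SE, limma adjusted p = 0.0291). RFC2 was lower at 24 h by 1.95 ± 0.16 (SE) and at 0.16 ± 0.16 (SE) at 72 h. RFC1, the large subunit specific to the PCNA loader, was at 0.06 ± 0.16 (SE) at 24 h and higher at 72 h by 0.65 ± 0.16 (SE), a value of −0.24 with spike-in scaling. The other RFC1 probe set past the filter was at −0.06 ± 0.19 (SE, limma adjusted p = 0.796) at 72 h, so the call rests on 1 of 2 probe sets.

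PCNA, the ring that holds the polymerases to DNA, read 13.61, 13.12 and 13.72 in control and 12.15, 11.96 and 12.51 in Ota at 24 h. It read 11.84 to 12.16 on the 3 control arrays and 12.63, 12.98 and 12.58 in Ota at 72 h. Its groups changed order between the times without overlap at either. For PCNA the log2 fold change was −1.28 ± 0.20 (SE, limma adjusted p = 0.000185) at 24 h and 0.73 ± 0.20 (SE, limma adjusted p = 0.00817) at 72 h, the latter −0.16 with spike-in scaling. RFC5 read 10.19, 9.71 and 10.67 in control and 10.94, 10.66 and 10.96 in Ota at 24 h on its brightest probe set. The 72 h readings were 10.18, 10.51 and 10.30 in control and 11.09, 10.63 and 10.54 in Ota. The groups overlapped at 24 h, and at 72 h the Ota arrays were just above control. For RFC5 the log2 fold change was 0.67 ± 0.23 (SE, limma adjusted p = 0.027) at 24 h. That call was lost when replicate 1 or 3 of Ota, or 1 or 2 of control, was left out (limma adjusted p 0.0628 to 0.119). It was lost also with only the 6 arrays of 24 h and without the filter, and spike-in scaling turned the value to −1.19. The other 2 RFC5 probe sets past the filter were lower at 24 h, at −3.80 and −5.30, as described with the probe sets below.

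RPA covers exposed strands at the fork, and on the brightest probe sets RPA2 was called at 24 h and RPA1 and RPA3 were not. RPA1 has a probe set of a different course, given with the probe sets below. RPA2, the subunit that checkpoint kinases phosphorylate, read 9.29, 9.47 and 9.40 in control and 5.82, 4.83 and 6.73 in Ota at 24 h. By 72 h the arrays gave 8.35, 8.64 and 8.49 in control and 8.63, 8.59 and 8.95 in Ota. Ota was far below control at 24 h and overlapped with it at 72 h. For RPA2 the log2 fold change was −3.59 ± 0.35 (SE, limma adjusted p = 4.48e-06) at 24 h and 0.23 ± 0.35 (SE, limma adjusted p = 0.603) at 72 h. RPA1, the main DNA-binding subunit, was at 0.23 ± 0.13 (SE) at 24 h and higher at 72 h by 0.94 ± 0.13 (SE), and RPA3 was at −0.08 ± 0.16 (SE) and 0.11 ± 0.16 (SE). The 72 h call on RPA1 did not hold under spike-in scaling.

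FEN1, the nuclease that trims Okazaki fragments, read 10.02, 10.00 and 10.08 in control and 8.68, 8.20 and 9.31 in Ota at 24 h. It read 8.57, 8.74 and 8.65 in control and 9.88, 10.05 and 9.80 in Ota at 72 h. The order of the groups turned over, as for PCNA and CDC45. For FEN1 the log2 fold change was −1.30 ± 0.23 (SE, limma adjusted p = 0.000356) at 24 h and 1.25 ± 0.23 (SE, limma adjusted p = 0.000473) at 72 h, and spike-in scaling ended the 72 h call. LIG1, which seals the fragments, was at −0.11 ± 0.21 (SE) and −0.18 ± 0.21 (SE), and fell in control cells by 1.80. TIMELESS, which with TIPIN steadies the fork, read 9.06, 8.58 and 8.87 in control and 7.83, 8.48 and 7.76 in Ota at 24 h. The 72 h readings were 7.38, 7.19 and 7.17 in control and 6.03, 6.32 and 6.35 in Ota. Ota was below control at both times, by a narrow gap at 24 h. For TIMELESS the log2 fold change was −0.81 ± 0.20 (SE, limma adjusted p = 0.00458) at 24 h and −1.02 ± 0.20 (SE, limma adjusted p = 0.00105) at 72 h, and the 24 h value was −0.25, not past the threshold, with median centring.

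Of the genes that rebuild chromatin behind the fork all 3 were lower at 24 h, beside 40.5% of all tested genes. All 3 had a higher effect at 72 h, beside 29.6% of all tested genes. CHAF1A, the large subunit of the histone chaperone CAF-1, read 9.27, 9.29 and 8.91 in control and 6.19, 7.23 and 7.01 in Ota at 24 h. At 72 h the arrays gave 7.51, 7.87 and 7.67 in control and 8.10, 8.09 and 8.44 in Ota. Ota was below control at 24 h and slightly above it at 72 h, without overlap. For CHAF1A the log2 fold change was −2.34 ± 0.25 (SE, limma adjusted p = 7.33e-06) at 24 h and 0.53 ± 0.25 (SE, limma adjusted p = 0.0833) at 72 h. The other 2 CHAF1A probe sets past the filter were also lower at 24 h and were called higher at 72 h, by 1.23 ± 0.32 (SE, limma adjusted p = 0.0057) and 1.33 ± 0.27 (SE, limma adjusted p = 0.00102). CHAF1B, its partner, was at −1.55 ± 0.17 (SE) and 0.58 ± 0.17 (SE). The 72 h value of CHAF1B was −0.31 with spike-in scaling, and without control replicate 1 of 72 h it was 0.47 and not called (limma adjusted p = 0.0616, and 0.0014 to 0.323 over all settings). UHRF1, which brings the DNA methyltransferase DNMT1 to newly copied DNA, read 10.60, 10.45 and 10.66 in control and 9.60, 9.15 and 9.77 in Ota at 24 h. It read 7.82, 7.77 and 7.60 in control and 9.16, 9.37 and 9.39 in Ota at 72 h. The control arrays dropped far between the times while the Ota arrays stayed near their 24 h level. For UHRF1 the log2 fold change was −1.06 ± 0.17 (SE, limma adjusted p = 0.000189) at 24 h and 1.58 ± 0.17 (SE, limma adjusted p = 8.86e-06) at 72 h, beside a fall of UHRF1 in control cells of −2.84 ± 0.17 (SE, limma adjusted p = 1.65e-06).

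**Figure D4:**
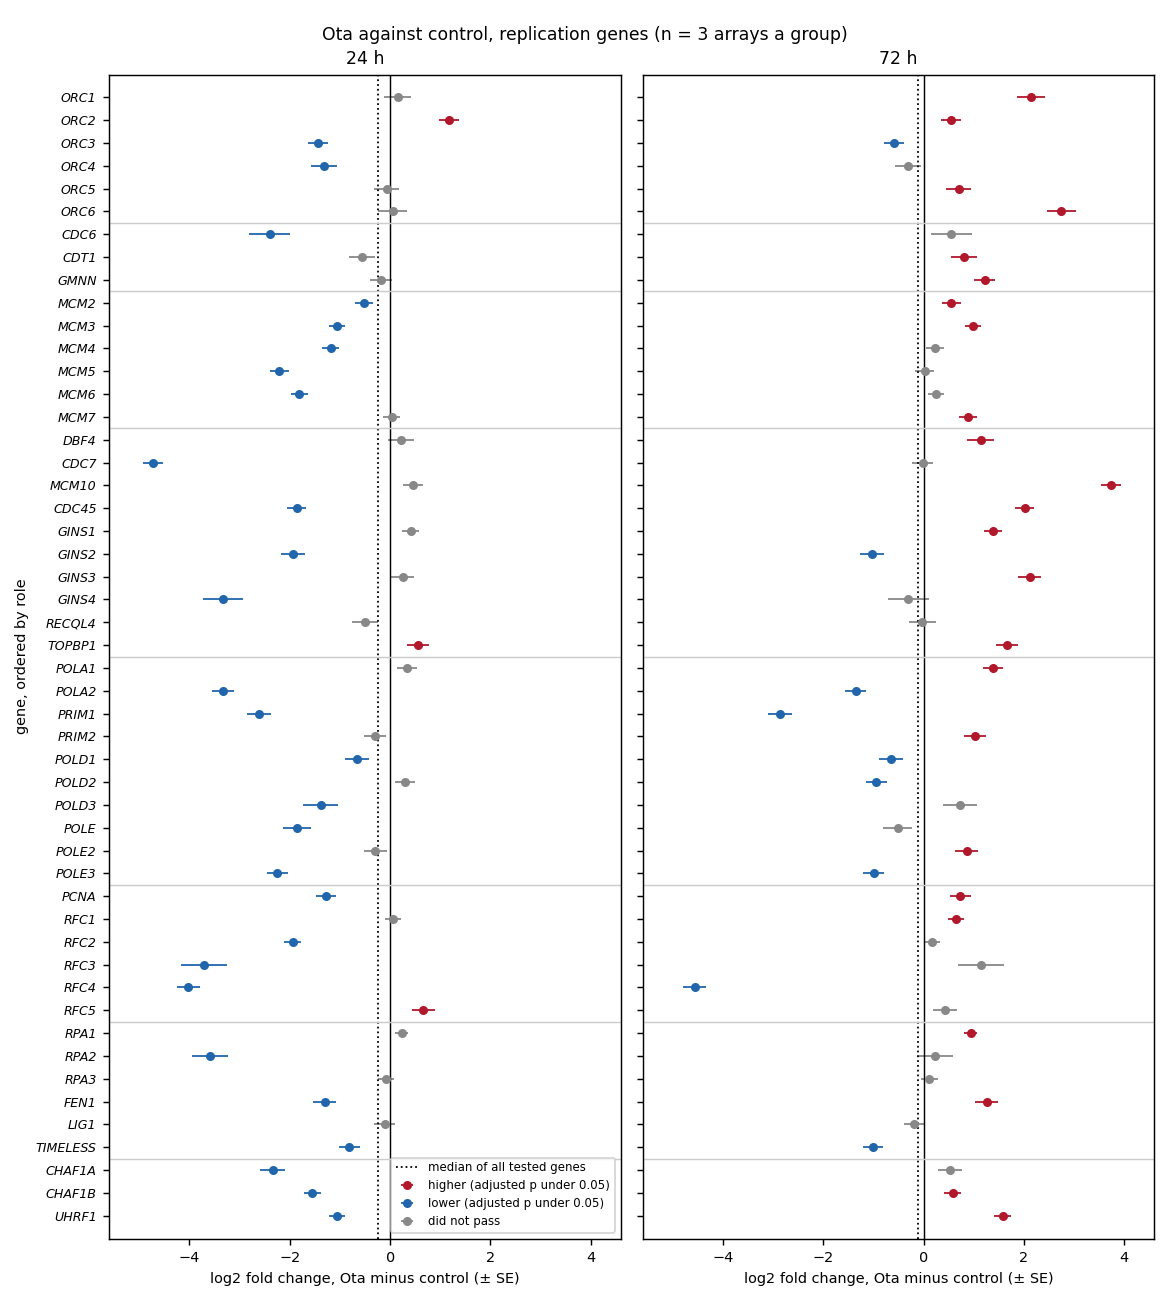
Log2 fold change of Ota against control (horizontal axis, ± SE) for the 50 genes at 24 h (left) and 72 h (right), red for higher and blue for lower at a limma adjusted p under 0.05 and grey otherwise; the dotted line is the median of all tested genes. RFC4 is at −4.02 and −4.57 and PRIM1 at −2.61 and −2.86, while CDC7 goes from −4.73 to −0.02. The 24 h value and bar of CDC7 rest on Ota arrays under the filter value. With spike-in scaling 7 genes and not 24 were called higher at 72 h, beside 5.17% and not 24.8% of all tested genes.

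Set side by side, the calls of both times gave a few courses, in comparisons that share no arrays but sit on control cells that themselves changed. MCM2, MCM3, CDC45, PCNA, FEN1, CHAF1B and UHRF1, 14% of the 50, were lower at 24 h and higher at 72 h, a course of 3.64% of all tested genes, and all 7 fell with time in control cells. A further 13, 26%, were lower at 24 h and not called at 72 h, as were 15.2% of all tested genes. Among these, the changes of effect of CDC7, RFC3 and RPA2 were 4.70, 4.84 and 3.82. The CDC7 value rests on Ota arrays of 24 h under the filter value. On other probe sets RFC3, CHAF1A and MCM6 were called higher at 72 h. Another 15, 30%, were not called at 24 h and were higher at 72 h, against 10.2% of all tested genes. Lower at both times were 8, 16% against 21.6% of all tested genes, namely ORC3, GINS2, POLA2, PRIM1, POLD1, POLE3, RFC4 and TIMELESS. ORC2 and TOPBP1 were higher at both times, 4% against 11% of all tested genes. RFC5 was higher at 24 h alone, 2% against 7.46%, and POLD2 was lower at 72 h alone, 2% against 11.2%. On other probe sets ORC2 and RFC5 were lower at 24 h, as given with the probe sets below. RECQL4, RPA3 and LIG1, 6% against 17.3% of all tested genes, were called at neither time, and all 3 fell in control cells. Within Ota cells, 19 genes were higher on all 72 h arrays than on all 24 h arrays and 10 were lower. The same measure held for 37.4% and 24.7% of all tested genes, so these shares, 19 and 10 of 50, were near the background.

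The calls differed in how well they held when the fit was changed and the threshold, an adjusted p under 0.05, was kept. Of the 28 genes lower at 24 h, 24 kept that call in every such fit that measured them, among them GINS4, which had to differ between groups. The other 4 were ORC4, MCM2, POLD1 and TIMELESS. Of the 3 genes higher at 24 h, 0 did, and of the 24 higher at 72 h 7 did: ORC1, ORC6, MCM10, CDC45, GINS3, TOPBP1 and UHRF1. Spike-in scaling was among these fits. By construction it lowered every Ota value relative to control, by 1.85 at 24 h and 0.89 at 72 h. That favours keeping lower calls over higher ones, so these counts cannot compare how sound the directions are. The share of all tested genes that kept a call was not counted. Of the 9 lower at 72 h, GINS2, POLA2, PRIM1, POLD2, POLE3, RFC4 and TIMELESS kept the call in these fits, though POLD2 and POLE3 lie under a log2 fold change of 1 in size. In control cells 29 of the 38 falls were of a log2 fold change of 1 or more in size. Of the 38, 31 kept the call, among them all of MCM2 to MCM7 and also GINS4. The exceptions were TOPBP1, PRIM2, POLD2, POLD3, RFC2, RPA1 and RPA3. Leaving out 1 array ended the control time call on PRIM2, POLD2, POLD3, RFC2 or TOPBP1, with limma adjusted p up to 0.151. The arrays whose removal ended the call were replicate 3 of 72 h for RFC2, each of the 6 control arrays for POLD2, all but replicate 2 of 72 h for POLD3, replicates 1 and 3 of either time for PRIM2, and 9 arrays for TOPBP1, including each of the 6 control arrays.

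For 20 of the 50 genes more than 1 probe set passed the filter, and the choice among them decided the direction in a few. All passing probe sets of a gene had the same sign for 14 of 20 genes at 24 h, 14 at 72 h, 17 for the change of effect and 16 for time in control cells. ORC2 was 1.18 ± 0.20 (SE) on 235423_at and −2.55 ± 0.37 (SE) on 204853_at at 24 h, both past the threshold. The 204853_at values were 8.33, 7.85 and 8.19 in control and 6.32, 4.50 and 5.90 in Ota, without overlap. RFC5 was 0.67 ± 0.24 (SE) on 213734_at, −3.80 ± 0.24 (SE) on 203209_at and −5.30 ± 0.41 (SE) on 203210_s_at at 24 h. On 203209_at the arrays read 10.50, 10.26 and 10.56 in control and 6.15, 7.06 and 6.71 in Ota, so these RFC5 probe sets resemble RFC2, RFC3 and RFC4 in direction and the brightest does not. CDT1 was 0.80 ± 0.26 (SE) on 228868_x_at and −1.11 ± 0.28 (SE) on 209832_s_at at 72 h, and the latter was −2.71 ± 0.28 (SE) at 24 h.

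Chosen after their values were seen, 3 more probe sets stand apart from the brightest of their gene. RPA1 had 1, 236675_at, that read 2.60, 2.61 and 2.68 in control and 8.27, 7.88 and 8.81 in Ota at 24 h, a mean of 8.32 against 2.63. Counted from the filter value, under which all its control arrays lay, Ota was at least 4.32 higher at 24 h and at least 4.83 higher at 72 h on the log2 scale. It passed the filter through the Ota arrays alone and had to differ. The other RPA1 probe sets gave 0.23 and 0.13 at 24 h and 0.94 and 1.08 at 72 h. MCM6 had 238977_at, at 0.10 ± 0.20 (SE) at 24 h and 2.51 ± 0.20 (SE) at 72 h, against −1.81 and 0.25 on the brightest. ORC4 had 203352_at, at 0.10 ± 0.37 (SE) at 24 h against −1.32 on the brightest. Where in each transcript these probe sets lie was not analysed here.

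**Figure D5:**
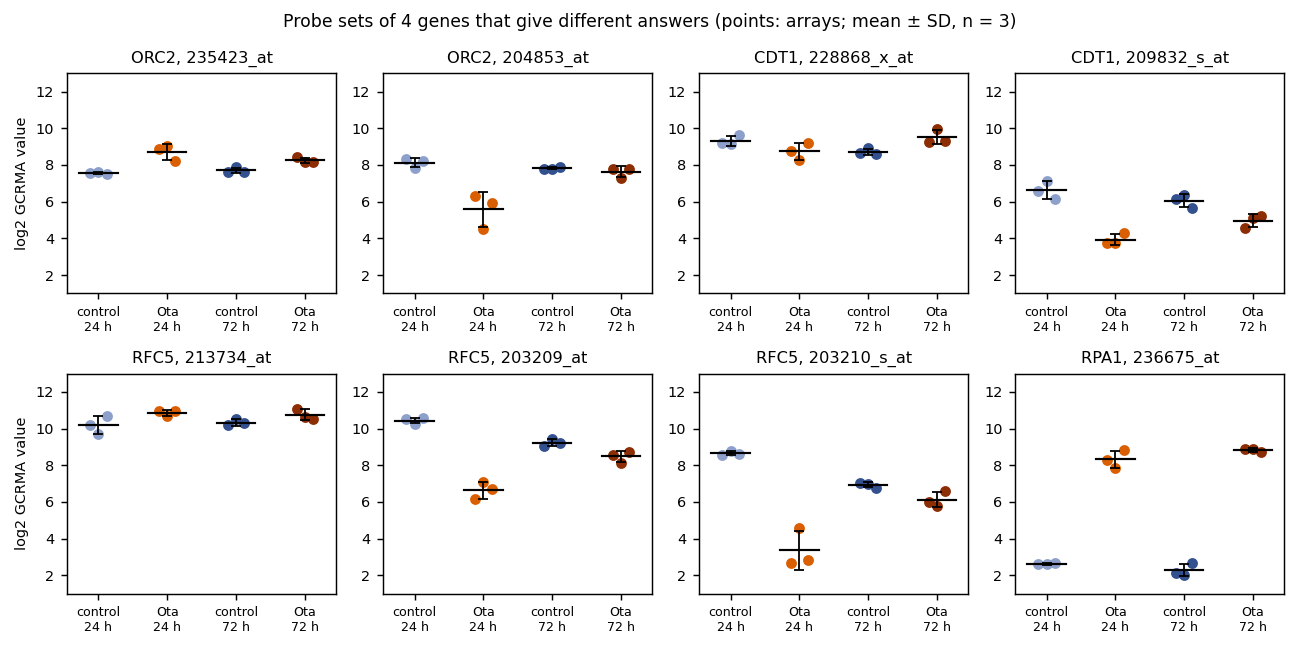
Log2 GCRMA values (vertical axis) of 8 probe sets of ORC2, CDT1, RFC5 and RPA1 in the 4 groups; points are the 3 arrays of a group and lines with bars are the mean ± SD. At 24 h ORC2 is higher in Ota on 235423_at (1.18) and lower on 204853_at (−2.55), and RPA1 on 236675_at is at least 4.32 higher in Ota; with spike-in scaling ORC2 on 235423_at is lower by 0.67.

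Genes that work beside the 50 were counted over lists set by function. They are to be read against the same 40.5% lower and 20.8% higher of all tested genes at 24 h, 35.2% lower and 24.8% higher at 72 h. Counts under median centring or spike-in scaling are to be read against the shares of all tested genes under that scaling, given above. Of 30 origin firing and fork accessory genes 29 were tested, and 15 were lower (51.7%) and 3 higher (10.3%) at 24 h, with a median of −0.59, which became 9 lower and 12 higher with median centring and 28 lower with spike-in scaling. At 24 h WDHD1, which links the helicase to polymerase alpha, was at −3.59 ± 0.23 (SE), and TIPIN, the partner of TIMELESS, at −3.41 ± 0.36 (SE). DONSON, needed for helicase assembly, was at −2.91 ± 0.16 (SE), and RNASEH2B, POLE4 and TOP1 were the 3 higher genes. At 72 h 10 were higher and 6 lower, turning to 3 higher and 13 lower with spike-in scaling. The higher ones were led by DTL, an adaptor of the ligase that degrades CDT1, at 2.78 ± 0.21 (SE), and ASF1B, a histone chaperone, at 2.49 ± 0.26 (SE). The RNase H2 subunits, which remove ribonucleotides from DNA, parted at 72 h. RNASEH2A was at −4.84 ± 0.37 (SE), RNASEH2C at −3.16 ± 0.34 (SE) and RNASEH2B at 1.60 ± 0.24 (SE). The effect was higher at 72 h for 18 genes and lower for 4, beside 29.6% and 19.9% of all tested genes. In control cells 18 fell, beside 13.3% of all tested genes.

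The E2F and RB family, transcription factors and their repressors that time S-phase genes, had 13 of 14 genes tested. At 24 h 5 were lower (38.5%) and 2 higher (15.4%), near the share of all tested genes and with a median of −0.02, or 1 lower and 7 higher with median centring and 13 lower with spike-in scaling. The lower ones included the repressor E2F7, at −3.34 ± 0.45 (SE), and E2F2, at −1.15 ± 0.25 (SE). At 72 h 6 were higher and 1 lower, or 2 higher and 4 lower with spike-in scaling. E2F8 was at 2.51 ± 0.31 (SE), MYBL2 at 2.07 ± 0.21 (SE) and E2F5, the lower one, at −0.60 ± 0.17 (SE). In control cells 6 fell and 1, TFDP2, rose, beside 13.3% and 12.2% of all tested genes. Genes that supply deoxynucleotides, 7 of 8 tested, were lower in 4 and higher in 1 at 24 h, and higher in 3 and lower in 1 at 72 h. With spike-in scaling all 7 were lower at 24 h and 1 lower and 0 higher at 72 h. All 7 fell in control cells, beside 13.3% of all tested genes, or 6 of them with spike-in scaling, beside 6.56%. RRM2, the regulated subunit of ribonucleotide reductase, was at −2.03 ± 0.21 (SE) and 0.13 ± 0.21 (SE), and TK1, thymidine kinase, at −0.81 ± 0.28 (SE) and −2.02 ± 0.28 (SE). Of 8 proliferation markers 3 were lower at 24 h (37.5%, near the share of all tested genes), and 7 were higher at 72 h. All 8 fell in control cells, beside 13.3% of all tested genes. With median centring 2 were lower and 3 higher at 24 h, and with spike-in scaling all 8 were lower at 24 h and 1 was higher at 72 h. CCNB1, a mitotic cyclin, was at −3.90 ± 0.30 (SE) at 24 h and 0.25 ± 0.30 (SE) at 72 h, and MKI67, a marker of cycling cells, at −3.47 ± 0.24 (SE) and 0.75 ± 0.24 (SE). TOP2A stands in this list and among the accessory genes.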

How the data were processed

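RNA of 12 HK-2 samples was measured on Affymetrix arrays. The values are log2 expression values per probe set as deposited by the authors, made with GCRMA per the submitters' processing notes; its version and any later filter are not given in the sources used here. Of 54675 probe sets 41097 had 1 gene symbol in the platform annotation, 1801 several and 11777 none, and 41043 of those with 1 symbol matched a current gene record. Probe sets had to exceed 4 on 3 or more of the 12 arrays, and the kept probe set with the highest mean stood for its gene. The model, limma 3.58.1 under R 4.3.3, had 4 group means for each of 10729 genes. Its moderated variances had 8 residual and 3.56 prior degrees of freedom. P-values were two-sided and Benjamini-Hochberg adjusted over all tested genes, with a threshold of 0.05. The median standard error of a fold change was 0.21 on the log2 scale.

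The 50 genes, the lists and the tests were chosen with earlier results of these data known. Array values are given for the largest rise and fall past the threshold in each role group and Ota comparison, the 6 largest changes of effect, and genes with opposed probe sets; outside the 50, up to 3 genes per list, direction and comparison were named. Deviations from the group means of arrays with equal replicate number correlated at 0.12, 0.23 and 0.27 at 24 h and at −0.05, 0.14 and 0.19 at 72 h, so the block was an alternative. The others were 3 array scalings, 2 filters, other choices of probe set, a variance trend, array weights, other thresholds, the 6 arrays of a comparison, and leaving out each array. The fit was tested on simulated data, with 50 genes changed at each size in the Ota group of 24 h. Of changes of 0.5, 1, 2 and 4 on the log2 scale, 8%, 54%, 94% and 100% were called. Changes of 1 or less were often missed there, so a gene not called may still have changed. Far more genes were called in the real data than were changed in the simulated data. Promoters were searched in RefSeq windows of GRCh38.p14.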

Additional observations from a re-analysis of the deposited data

Results flagged for a closer look

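Single arrays were not screened for outliers because each group had 3. The Ota effects of 24 h and 72 h differed for 38 of the 50 genes by the test of that difference (limma interaction, adjusted p under 0.05; 49.5% of all tested genes passed in either direction), and each value here is the effect at 72 h minus that at 24 h on the log2 scale. Among the origin genes it was 1.98 for ORC1, 0.84 for ORC3, 1.01 for ORC4 and 2.70 for ORC6. Among the loading factors it was 2.95 for CDC6, 1.36 for CDT1 and 1.40 for GMNN. The MCM ring had 1.08 for MCM2, 2.06 for MCM3, 1.41 for MCM4, 2.23 for MCM5, 2.05 for MCM6 and 0.85 for MCM7. The activation genes had 4.70 for CDC7, 3.26 for MCM10, 3.88 for CDC45, 0.97 for GINS1, 0.91 for GINS2, 1.86 for GINS3, 3.02 for GINS4 and 1.10 for TOPBP1. Among the polymerases it was 1.04 for POLA1, 1.98 for POLA2, 1.32 for PRIM2, −1.24 for POLD2, 2.11 for POLD3, 1.33 for POLE, 1.16 for POLE2 and 1.25 for POLE3. The clamp and its loader had 2.01 for PCNA, 2.11 for RFC2 and 4.84 for RFC3. The remaining genes had 0.71 for RPA1, 3.82 for RPA2, 2.56 for FEN1, 2.87 for CHAF1A, 2.13 for CHAF1B and 2.64 for UHRF1. POLD2 alone was negative. The values of CDC7 and GINS4 rest on groups below the filter value, and GINS4 had to differ between groups. For 31 of the 37 positive values the call held at an adjusted p under 0.05 in every other fit that measured the gene, and the exceptions were ORC3, ORC4, MCM7, GINS2, POLE and RPA1.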

How the results depend on the processing

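The counts of genes lower at 24 h, higher at 72 h, with a higher effect at 72 h and falling in control cells kept within 1.5 times under quantile normalization, centring, both filters, the probe set choices, the variance trend and array weights; spike-in scaling moved those at 24 h and 72 h. Of genes higher at 24 h, 3 with the values as deposited, there were 5 with quantile normalization, 16 with median centring, 0 with spike-in scaling, 10 with array weights and 1 with the 6 arrays alone, at an adjusted p under 0.01 or with a log2 fold change of 1 or more in size. Spike-in scaling gave 50 lower at 24 h, beside 93.5% of all tested genes. At 72 h it gave 7 higher and 20 lower, beside 5.17% and 62.6% of all tested genes. The fold change limit gave 13 higher and 5 lower at 72 h. The effect was lower at 72 h for 2 genes with quantile normalization, 3 with centring, 0 with spike-in scaling and 2 with array weights, against 1. Leaving out 1 array gave 1 to 6 higher and 26 to 30 lower at 24 h, 20 to 27 higher and 7 to 10 lower at 72 h, 34 to 39 with a higher and 1 to 2 with a lower effect, and 33 to 40 falling in control cells. With the replicate number as a block the counts were 2 higher and 27 lower at 24 h, 25 higher and 8 lower at 72 h, 37 and 1 for the effect and 38 falling in control cells; beside TOPBP1 and POLD1 at 24 h and POLD1 and RFC3 at 72 h, the block ended the control time call on TOPBP1 (adjusted p = 0.0685) and added that on RFC3 (adjusted p = 0.0483), and it changed no other call.

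Values that changed sign and passed the threshold before or after were mostly those under spike-in scaling. At 24 h they were −1.70 for ORC1, −0.67 for ORC2, −1.80 for ORC6, −1.82 for MCM7, −1.64 for DBF4, −1.39 for MCM10, −1.44 for GINS1, −1.60 for GINS3, −1.29 for TOPBP1, −1.51 for POLA1, −1.55 for POLD2, −1.79 for RFC1, −1.19 for RFC5 and −1.62 for RPA1. At 72 h they were −0.34 for ORC2, −0.19 for ORC5, −0.091 for CDT1, −0.33 for MCM2, −0.66 for MCM4, −0.87 for MCM5, −0.64 for MCM6, −0.0060 for MCM7, −0.028 for POLE2, −0.16 for PCNA, −0.24 for RFC1, −0.73 for RFC2, −0.77 for RPA3 and −0.31 for CHAF1B. By construction that scaling subtracts each array's spike-in level from every gene. Median centring turned ORC5, MCM2 and RPA3 at 24 h to 0.49, 0.040 and 0.48. The mean over probe sets turned ORC2 and RFC5 at 24 h to −0.69 and −2.81, CDT1 at 72 h to −0.15, the change of effect of ORC2 and RFC5 to 0.86 and 2.43, and RFC5 in control cells to −0.93. Without probe sets whose names end in _x_at, _s_at or _a_at ORC4 at 24 h was 0.10. The cause of the array-wide shift was not tested. No precision can be given for values near the filter value, where signal and background are close.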
